A study of Mus musculus with 21 samples.

Results

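The genes described here copy the genome in S phase. They were chosen by name: 58 genes of DNA replication and S phase, each read from the probe set that carries its symbol in the array's annotation. Where a gene had more than 1 such probe set, as did Pcna, Rpa3, Tk1 and Slbp, the one with the highest mean over all arrays was used. All 58 were found among the 19938 genes measured. By role they fall into 8 classes: 10 origin licensing factors, 8 factors of origin firing, 9 subunits of the polymerases and primase, and 10 proteins of the sliding clamp, its loader and the lagging strand. The remaining classes hold 5 enzymes of nucleotide supply, 7 proteins that copy chromatin behind the fork, 3 fork protection factors, and 6 E2F factors and E-type cyclins.

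RNA came from the right lungs of male C57BL/6 mice, and each of 21 RNA samples was hybridised to 1 Affymetrix array. The left lung had been removed (left pneumonectomy) 3, 7, 14, 28 or 56 days earlier. The mice with no pneumonectomy (day 0) and mice 56 days after sham surgery were the comparison groups. Each of these 7 conditions had 3 arrays, 1 each of the medial lobe, the cardiac lobe and the whole right lung, and values below are given in that region order. The regions served as the replicates, so p-values rest on how far changes differ between regions. Whether 1 mouse gave all 3 samples of a condition, whether mice were pooled, and their age are not stated in the labels. All values are log2 array signals that the authors had normalized by robust multi-array averaging (RMA). A log2 difference of 1 is a doubling of signal. Levels are compared between arrays for 1 gene, and between genes only to point out or leave out dim genes.

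Adult lung is a tissue in which few cells divide, and removal of a lung in rodents is followed by growth of the lung that stays. A cell prepares for S phase by loading the MCM2-7 helicase onto origins in G1, with ORC, CDC6 and CDT1 as loaders. At the G1/S boundary cyclin E with CDK2, and the kinase of CDC7 and DBF4, fire the origins by joining CDC45 and the GINS complex to the helicase. The polymerases, the PCNA clamp, and the enzymes that seal lagging-strand fragments then copy the DNA while nucleosomes and DNA methylation are restored behind the fork. Many of these genes are transcribed in bursts under E2F factors, which bind short promoter elements. Because whole tissue was measured, more cells in S phase and more RNA per cell cannot be told apart.

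The promoters of these genes are shown because E2F elements are the known common feature of S-phase genes. RefSeq promoter windows (mouse build GRCm38.p6, 250 bases before to 50 bases after each start site) were at hand for 49 of the 58 genes, in 59 windows. The E2F letters searched were TTTCCCGC, TTTCGCGC, TTTGCCGC and TTTGGCGC on either strand. They occurred in 20 of the 59 windows (33.9%), against 744 of the 32851 windows of all genes (2.26%). The NF-Y letters CCAAT occurred in 55.9% of the members' windows, against 37.4% of all windows. The CHR letters TTTGAA, an element known from mitotic gene promoters, occurred in 20.3%, against 17.9%. No test was made of these shares. The 27 E2F matches lay between base -219 and base 39, with the first base of the transcript at 0 and overlapping matches counted separately. Of these, 6 began within the 100 bases before the start or at it. Windows with E2F letters were found for 10 of the 25 members in the table that rose at day 3 and for 10 of the 24 that did not pass. The 4 windows below belong to the genes with E2F letters whose day 3 difference was largest. Where a gene had several windows, the one printed was picked for holding E2F letters. All are written 5′ to 3′ along the gene, with the E2F letters in capitals.
Uhrf1, chr17:56304063-56304362, + strand: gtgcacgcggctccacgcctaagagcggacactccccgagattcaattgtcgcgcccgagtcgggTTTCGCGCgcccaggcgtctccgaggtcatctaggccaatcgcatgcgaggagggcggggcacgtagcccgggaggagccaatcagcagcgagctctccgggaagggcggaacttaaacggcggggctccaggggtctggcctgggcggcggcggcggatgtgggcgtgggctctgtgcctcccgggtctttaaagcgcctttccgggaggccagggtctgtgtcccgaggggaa
Mcm5, chr8:75109259-75109558, + strand: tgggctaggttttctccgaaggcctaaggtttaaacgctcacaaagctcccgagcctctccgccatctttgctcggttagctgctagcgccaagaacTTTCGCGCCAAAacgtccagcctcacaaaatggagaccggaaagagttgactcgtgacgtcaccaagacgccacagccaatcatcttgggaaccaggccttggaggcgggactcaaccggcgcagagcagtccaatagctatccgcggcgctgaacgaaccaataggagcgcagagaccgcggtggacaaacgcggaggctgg
Lig1, chr7:13278576-13278875, + strand: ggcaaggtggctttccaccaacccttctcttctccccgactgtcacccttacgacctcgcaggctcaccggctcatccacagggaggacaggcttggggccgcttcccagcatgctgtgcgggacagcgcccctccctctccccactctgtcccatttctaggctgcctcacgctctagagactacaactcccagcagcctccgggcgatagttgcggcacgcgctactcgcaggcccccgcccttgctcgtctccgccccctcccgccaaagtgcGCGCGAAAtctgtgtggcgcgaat
Hells, chr19:38930740-38931039, + strand: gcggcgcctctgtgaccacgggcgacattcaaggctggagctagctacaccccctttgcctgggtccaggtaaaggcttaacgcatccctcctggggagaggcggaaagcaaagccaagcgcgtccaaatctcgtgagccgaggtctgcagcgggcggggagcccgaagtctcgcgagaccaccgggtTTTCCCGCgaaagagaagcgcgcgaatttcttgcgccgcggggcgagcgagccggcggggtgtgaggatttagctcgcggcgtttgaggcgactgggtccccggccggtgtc
Uhrf1, whose protein recognises newly copied, half-methylated DNA, had 1 match in the window printed, at -185. Another window of Uhrf1, which lies upstream, held no E2F letters. Mcm5, a subunit of the replicative helicase, had 2 matches that share bases, at -153 and -149. In Lig1, the ligase that joins lagging-strand fragments, the match lay within the transcribed part at base 26. Hells, a chromatin remodelling helicase, had its match at -62. A match to these letters is a description of the window and does not show that a factor binds there.

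**Figure D1:**
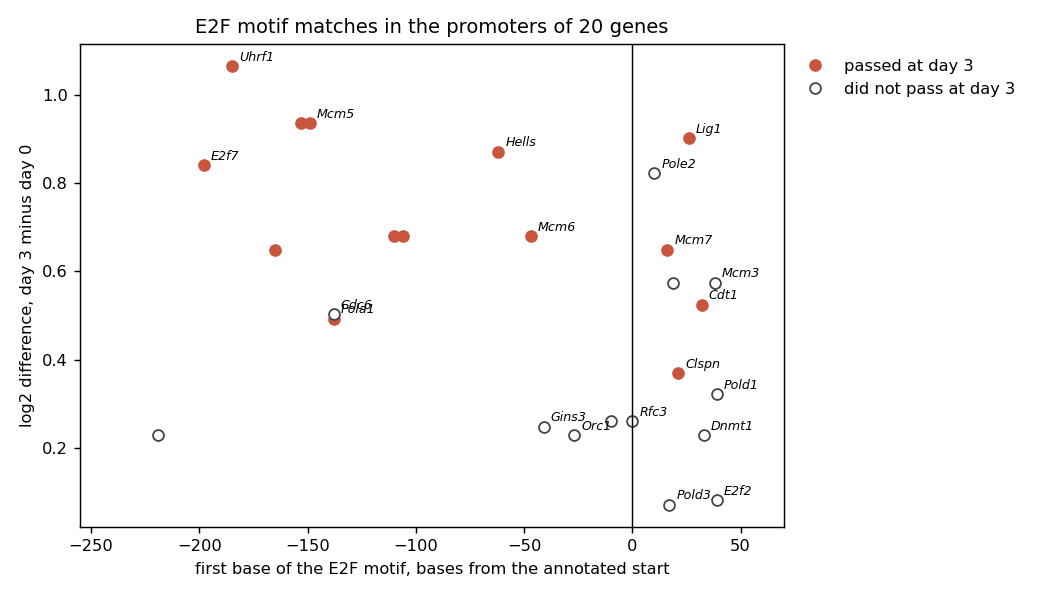
Positions of E2F letters in the promoter windows of the replication genes. The x axis is the first base of each match in bases from the start site, and the y axis is the gene's log2 difference, day 3 minus day 0. Filled symbols are genes that passed at day 3 and open ones genes that did not. The matches lie between base -219 and base 39, and both kinds of gene are among them.

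All 13 markers of lung tissue lay above the array median on all 21 arrays. Arrays correlated at 0.963 to 0.996 with each other. The day 7 cardiac lobe and day 56 pneumonectomy whole lung arrays stood apart from their regions in spread, with interquartile ranges of 3.55 and 3.39 over all probe sets, against 3.73 and 3.51 for the next array of the region. The calls at days 3 and 7 that were lost without these arrays are named with the counts.

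The mean over the 58 genes was highest at days 3 and 7 after pneumonectomy and was back near the day 0 level by day 14. It was 7.26, 7.95 and 7.44 at day 3, against 7.04, 7.10 and 6.95 at day 0. The day 7 values were 7.52, 7.50 and 7.28. By day 14 the mean was 6.99, 7.04 and 6.79, and at day 28 it was 6.81, 6.90 and 6.69. Day 56 after pneumonectomy gave 6.88, 6.90 and 6.81, against 6.90, 6.94 and 6.75 after sham surgery. All early arrays lay above all others in this mean. A moderated F test found a difference among the 7 conditions for 41 of the 58 genes, where 7.76% of all genes passed. The smallest adjusted p, 5.19e-05, was reached by Mcm6, Rrm2 and Ccne1. The condition with the highest mean was day 3 for 39 members and day 7 for 16, and the lowest was day 28 for 29. Among all genes these conditions held the highest mean for 16.6% and 20.1% and the lowest for 9.0%.

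**Figure D2:**
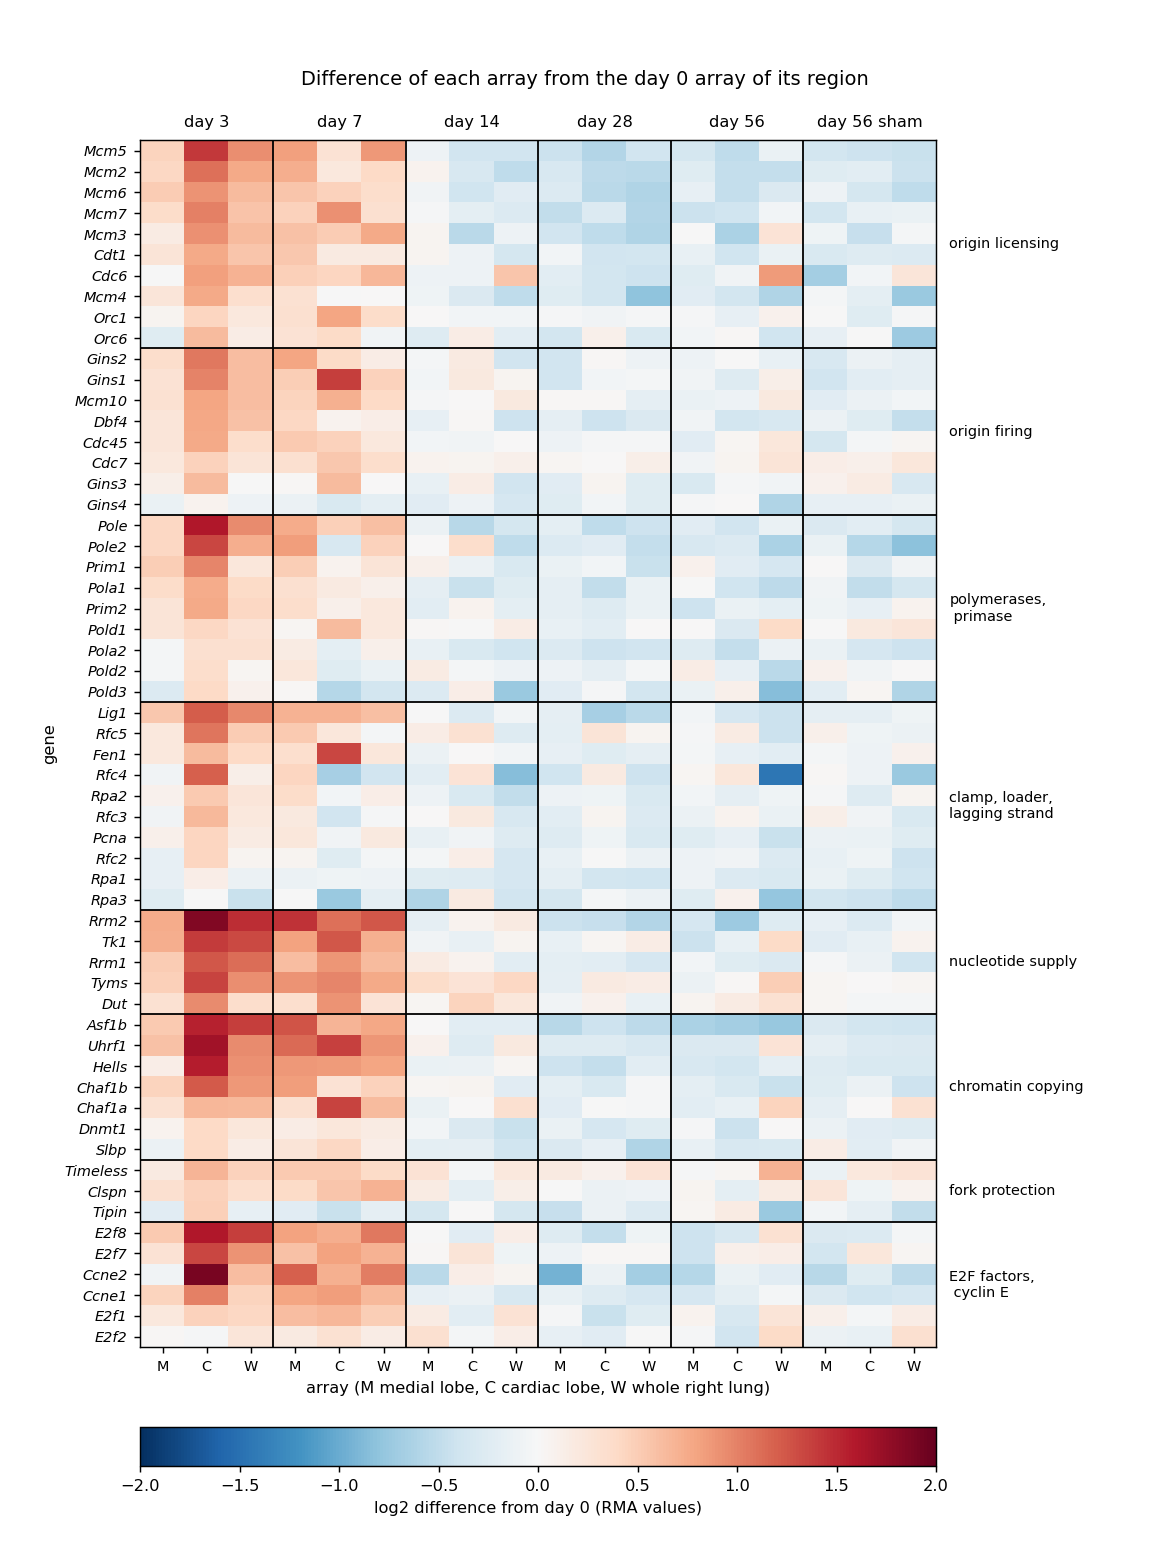
Difference from day 0 of the same region for the 58 genes (rows, by role) on the arrays of each later condition (columns, by region), in log2 units. Red is higher and blue lower than at day 0, and the red columns are days 3 and 7, with the day 3 cardiac lobe the strongest.

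At day 3, 29 of the 58 genes rose and none fell, where 3.97% of all genes passed as higher, 2.73% as lower and 6.7% in either direction (limma, adjusted p under 0.05). The rises were 1.24-fold to 2.56-fold. Of the 58 differences 55 were above 0, as were 10618 of the 19938 over all genes. The median over the members was 0.51, against 0.01 over all genes. For 34 members the 3 day 3 arrays lay wholly above the 3 day 0 arrays, as they did for 15.4% of all genes. At day 7, 24 rose and none fell, where 3.73% of all genes passed as higher, 4.97% as lower and 8.69% in either direction. Here the median difference was 0.44, against 0.03 over all genes. Above 0 were 49 members and 10827 of all 19938 genes. The day 7 arrays lay wholly above day 0 for 31 members and for 17.2% of all genes. Rpa3 was the single member whose arrays lay wholly below day 0 at day 3, and Tipin at day 7, as did 12.1% and 12.3% of all genes. These comparisons share the day 0 arrays.

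The size of these counts rested on single arrays. Calls over all genes in the same fits are not given, so whether the losses were particular to these genes was not tested. The count at day 3 was 15 when the day 3 cardiac lobe array was left out, 16 when the day 0 cardiac lobe was, 18 for the day 0 whole lung and 19 for the day 3 whole lung. In the medial and cardiac lobes alone, with fewer arrays, only Tk1 and Ccne1 passed. At day 7 the count was 7 without the day 0 whole lung, 8 without the day 0 cardiac lobe and 12 without the day 7 cardiac lobe. The 13 day 7 calls lost without the day 7 cardiac lobe were Orc1, Mcm6, Mcm7, Cdc7, Mcm10, Gins1, Fen1, Lig1, Rrm1, Dut, Chaf1a, Hells and E2f1, and Chaf1b was gained. Without both arrays of unusual spread 38 members rose at day 3, the 29 among them, and 19 at day 7, with Orc1, Mcm6, Mcm7, Fen1, Dut and Hells lost. The 14 day 3 calls lost without the day 3 cardiac lobe were Cdt1, Mcm2, Mcm7, Cdc7, Dbf4, Cdc45, Gins1, Gins2, Pola1, Prim1, Prim2, Dut, Hells and Clspn. No member fell in any of these fits.

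**Figure D3:**
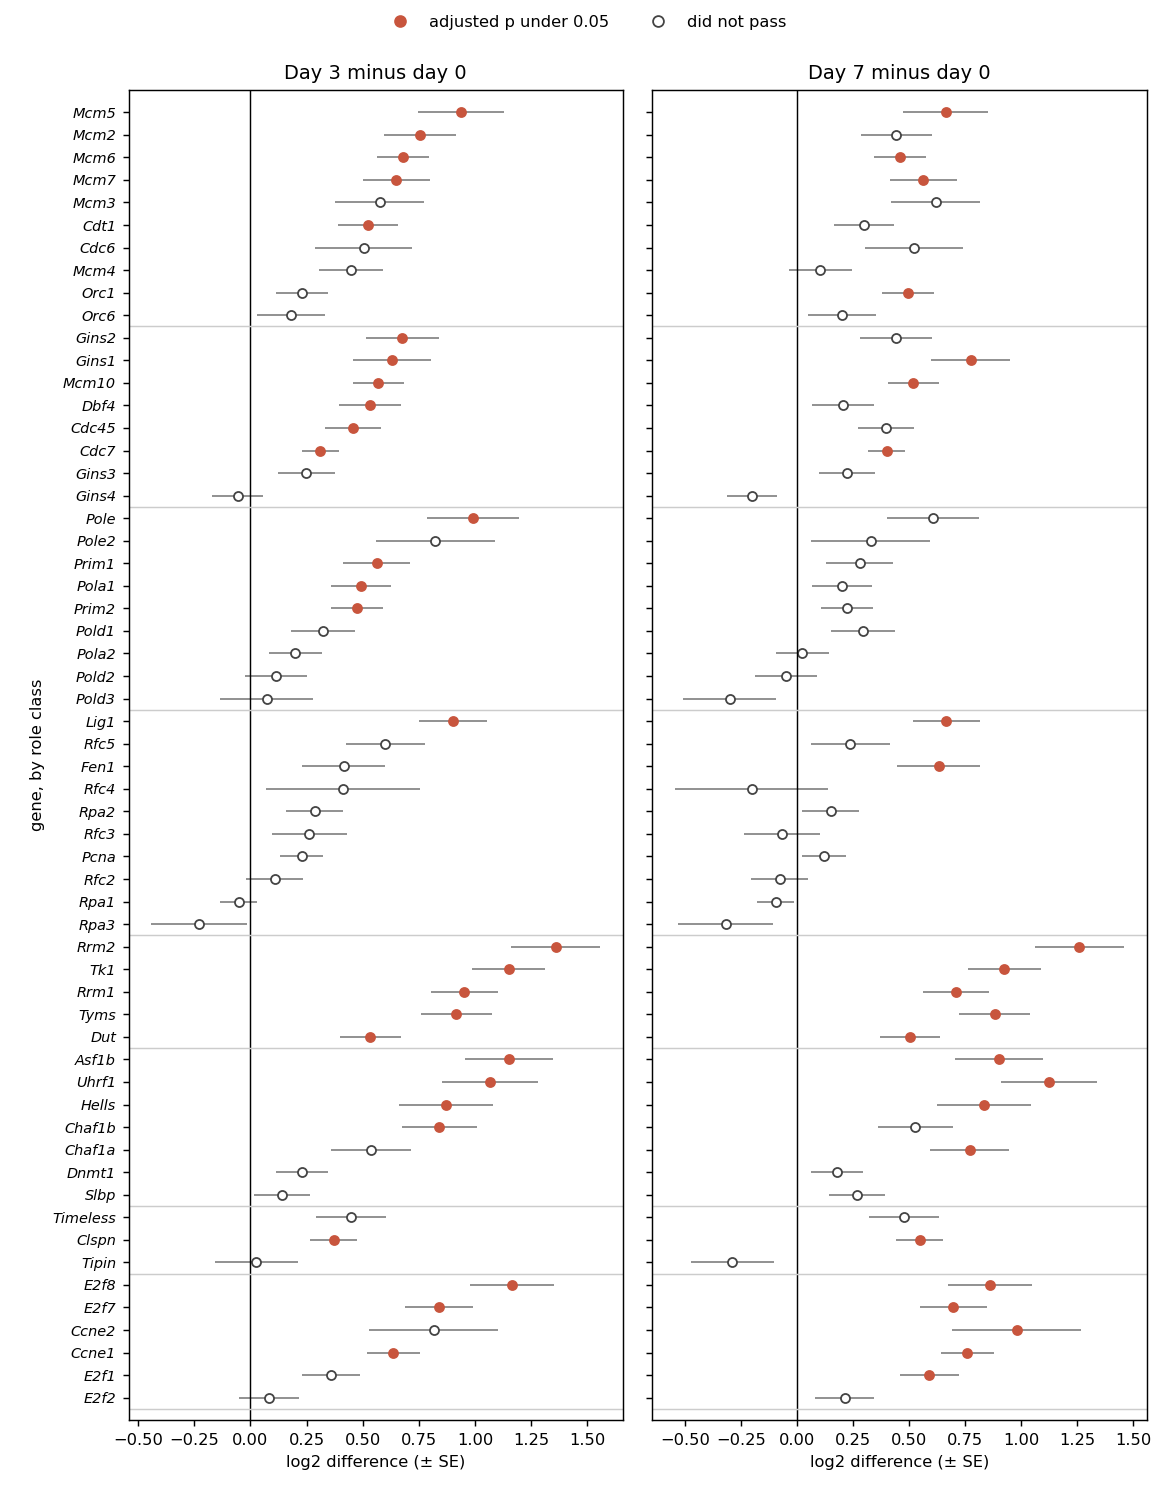
Log2 difference from day 0 of each of the 58 genes at day 3 and at day 7, by role, with bars of 1 standard error either way. Filled symbols passed at an adjusted p under 0.05, and the nucleotide supply class has the highest median at both days.

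In the nucleotide supply class all 5 members passed at both days on all arrays. Without the day 7 cardiac lobe array Rrm2, Tk1 and Tyms passed at day 7, while Rrm1 (0.66, adjusted p = 0.0526) and Dut (0.37, adjusted p = 0.187) did not. Rrm2 and Rrm1 encode the subunits of ribonucleotide reductase, which makes deoxynucleotides. Rrm2 had values of 7.97, 9.25 and 8.36 at day 3, against 7.23, 7.39 and 6.88 at day 0. At day 7 its values were 8.67, 8.50 and 8.12, at day 14 7.05, 7.46 and 7.06, and at day 28 6.80, 6.92 and 6.29. Day 56 gave 6.89, 6.67 and 6.62 after pneumonectomy, against 7.06, 7.11 and 6.83 after sham. All 6 early arrays lay above the other 15. The difference from day 0 was 1.36 ± 0.20 (SE) at day 3 (2.56-fold) and 1.26 ± 0.20 at day 7 (2.40-fold), each the largest of the 58, with adjusted p = 0.000687 and 0.00204.

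Tk1, the thymidine kinase of the salvage pathway, stood at 7.70, 8.35 and 8.11 at day 3, against 6.98, 6.95 and 6.79 at day 0. The day 7 arrays gave 7.79, 8.20 and 7.51. Day 0 and the early arrays did not overlap. Tk1 rose 2.22-fold at day 3 (adjusted p = 0.000533) and 1.90-fold at day 7 (adjusted p = 0.00424). Rrm1 had 9.29, 10.08 and 9.73 at day 3, against 8.78, 8.84 and 8.62 at day 0, a 1.93-fold rise. Tyms, thymidylate synthase, rose 1.89-fold at day 3 and 1.84-fold at day 7. Dut, which removes dUTP so that uracil stays out of DNA, had the smallest day 3 rise of the class. Its values were 7.31, 7.85 and 7.48 at day 3, against 7.00, 6.91 and 7.13 at day 0, a difference of 0.53 ± 0.13.

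Of the 10 licensing factors 5 rose at day 3, namely Mcm5, Mcm2, Mcm6, Mcm7 and Cdt1, and 4 at day 7, namely Mcm5, Mcm7, Orc1 and Mcm6. Mcm5 read 8.26, 9.37 and 8.44 at day 3, against 7.80, 7.95 and 7.50 at day 0. At day 7 it read 8.63, 8.24 and 8.37. All 6 early values exceed the highest day 0 value. Mcm5 rose 1.91-fold at day 3 (0.94 ± 0.19, adjusted p = 0.00695) and 1.58-fold at day 7 (adjusted p = 0.0428). Mcm2 had 8.24, 9.11 and 8.37 at day 3, against 7.83, 8.01 and 7.61 at day 0, and rose 1.69-fold. Its day 7 difference of 0.44 did not pass (adjusted p = 0.0912). Mcm6 rose 1.60-fold at day 3, with values of 7.94, 8.71 and 8.05, against 7.43, 7.81 and 7.41 at day 0. The other helicase subunits were Mcm7, which rose at both days (0.65 and 0.56), and Mcm3 and Mcm4, with day 3 differences of 0.57 and 0.45 that did not pass. Without the day 7 cardiac lobe array Mcm7 differed by 0.42 at day 7 (adjusted p = 0.177) and Mcm6 by 0.44 (adjusted p = 0.0935), and without the day 3 cardiac lobe Mcm7 differed by 0.51 at day 3 (adjusted p = 0.0955).

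Among the loaders of the helicase, Cdt1 rose at day 3 (0.52 ± 0.13), whereas Cdc6 differed by 0.50 ± 0.22 (adjusted p = 0.205). Orc1, the ORC subunit whose level follows the cell cycle, had 4.72, 5.30 and 4.75 at day 7, against 4.39, 4.51 and 4.38 at day 0. Orc1 passed at day 7 (0.49 ± 0.12) but not at day 3 (0.23 ± 0.12), and the day 7 call was lost without the day 7 cardiac lobe. Orc6 had the smallest difference of the class at day 3, with 8.28, 9.11 and 8.67, against 8.52, 8.47 and 8.53 at day 0. These Orc6 groups overlap, and the difference was 0.18 ± 0.15.

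On all arrays, origin firing showed the highest share of calls after nucleotide supply at day 3, with 6 of 8 members. This rested on the day 3 cardiac lobe array. Without it Cdc7, Dbf4, Cdc45, Gins1 and Gins2 did not pass at day 3, and of the class Mcm10 alone did. Gins2 and Gins1 encode subunits of the GINS complex, a part of the active helicase. Gins2 had 7.12, 7.94 and 7.53 at day 3, against 6.77, 6.88 and 6.91 at day 0, and rose 1.60-fold. Gins1 stood at 5.33, 6.06 and 5.52 at day 3, against 5.04, 5.07 and 4.90 at day 0. All of these day 3 arrays lay above day 0. At day 7 Gins1 read 5.53, 6.45 and 5.36, highest in the cardiac lobe array of unusual spread, and rose 1.71-fold. Without that array its difference was 0.51 (adjusted p = 0.0723). The other subunits did not pass at either day: Gins3 differed by 0.25 and 0.22, and Gins4 by -0.06 and -0.20. Gins4 values overlapped, with 9.10, 9.28 and 8.95 at day 3, against 9.23, 9.22 and 9.05 at day 0. Mcm10, which helps activate the helicase, rose at day 3 (0.57 ± 0.11) and day 7 (0.52 ± 0.11). The kinase Cdc7 rose by 0.31 and 0.40, and its activator Dbf4 (0.53) and the helicase component Cdc45 (0.45) passed at day 3. Without the day 7 cardiac lobe array Mcm10 (0.43, adjusted p = 0.0742) and Cdc7 (0.33, adjusted p = 0.0593) did not pass at day 7.

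**Figure D4:**
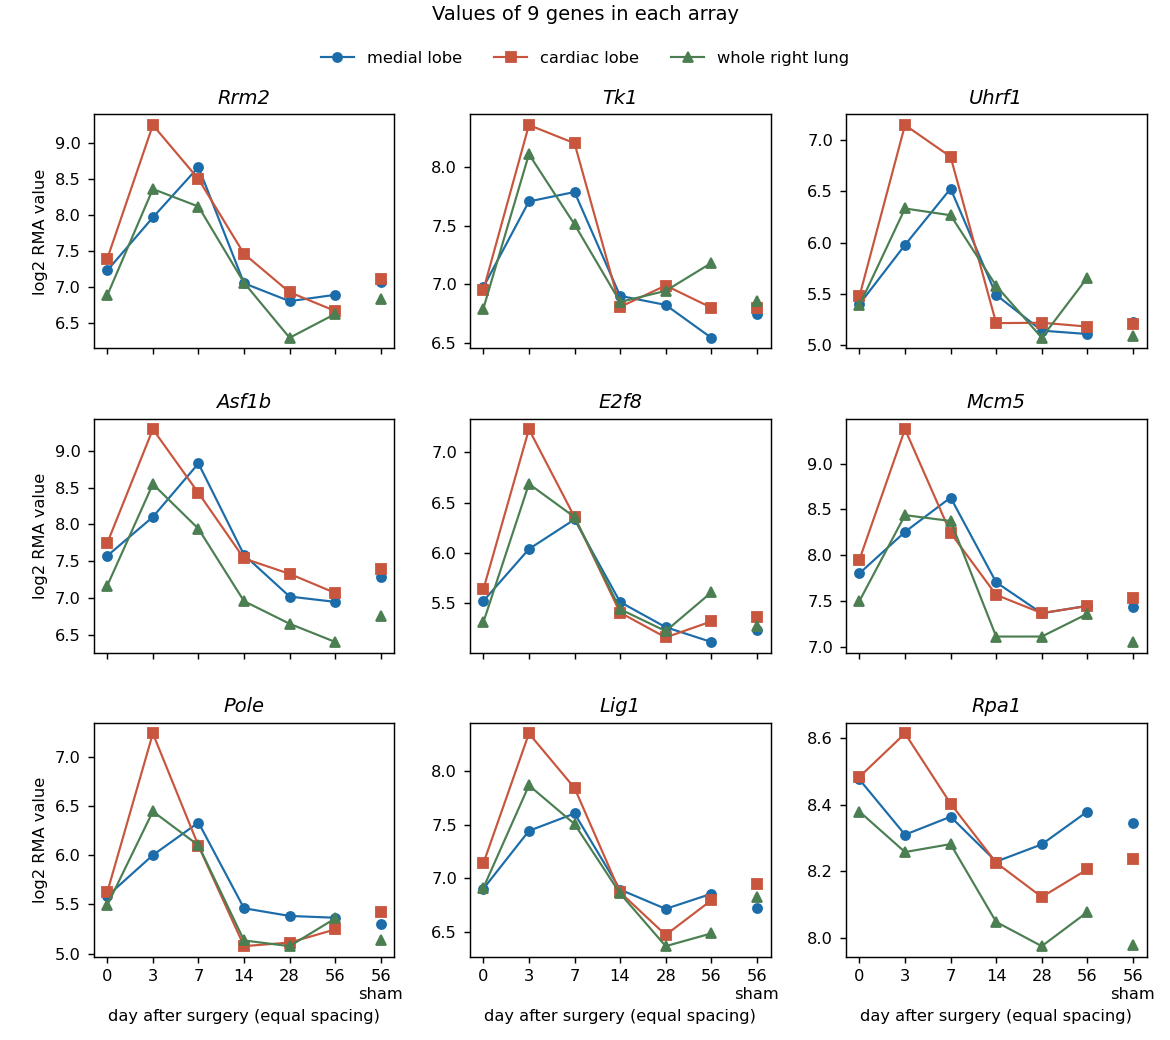
Log2 signal of 9 genes on all 21 arrays, by condition along the x axis (days at equal spacing, sham last), with 1 symbol per region. Rrm2, Tk1, Uhrf1, Asf1b, E2f8, Mcm5, Pole and Lig1 are highest at days 3 and 7, with the cardiac lobe highest at day 3. Rpa1 spans 0.64 over all arrays.

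Of the 9 polymerase and primase subunits 4 rose at day 3 and none passed at day 7. Pole, the catalytic subunit of the leading-strand polymerase, had 6.00, 7.23 and 6.44 at day 3, against 5.59, 5.63 and 5.49 at day 0. It rose 1.99-fold (adjusted p = 0.00765). At day 7 its arrays read 6.33, 6.10 and 6.10, again all above day 0, and the difference of 0.61 ± 0.21 missed the threshold (adjusted p = 0.0752). Prim1, the catalytic primase subunit, had 6.44, 7.14 and 6.28 at day 3, against 5.95, 6.17 and 6.05 at day 0. Pola1, which extends the RNA primers, had 6.40, 7.13 and 6.42 at day 3, against 6.04, 6.39 and 6.05 at day 0. In both genes the 3 day 3 arrays lay above day 0, with the cardiac lobe highest. The rises were 1.48-fold for Prim1, 1.41-fold for Pola1 and 1.39-fold for Prim2. Without the day 3 cardiac lobe Pole was the single member of the class that passed. The lagging-strand polymerase delta did not pass in any of 3 subunits, with day 3 differences of 0.32 for Pold1, 0.12 for Pold2 and 0.07 for Pold3. Pold3 values overlapped, at 8.45, 8.90 and 8.70 on day 3, against 8.73, 8.49 and 8.61 on day 0. Pole2 differed by 0.82 ± 0.26 at day 3 (adjusted p = 0.0783).

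In the class of the clamp, its loader and the lagging strand, Lig1 was the single member of 10 that rose at day 3, and Lig1 and Fen1 rose at day 7. Lig1 had 7.44, 8.35 and 7.87 at day 3, against 6.90, 7.14 and 6.91 at day 0. The day 7 values were 7.60, 7.84 and 7.51, and no early value overlapped day 0. Lig1 rose 1.87-fold at day 3 (0.90 ± 0.15, adjusted p = 0.00167) and 1.59-fold at day 7, where it did not pass without the day 7 cardiac lobe array (0.63, adjusted p = 0.0647). Fen1, the nuclease that trims lagging-strand fragments, had 6.35, 7.36 and 6.16 at day 7, against 6.01, 6.02 and 5.94 at day 0. The cardiac lobe stood highest there. Without the 2 arrays of unusual spread Fen1 did not pass at day 7 and did at day 3. The clamp Pcna read 11.15, 11.48 and 11.06 at day 3, against 11.05, 11.06 and 10.90 at day 0, a difference of 0.23 ± 0.10 (adjusted p = 0.204). None of the 4 clamp loader subunits Rfc2 to Rfc5 passed, with Rfc5 nearest (0.60 ± 0.18, adjusted p = 0.0532). None of the single-strand binding subunits Rpa1 to Rpa3 passed. Rpa1 had 8.31, 8.61 and 8.26 at day 3, against 8.48, 8.48 and 8.38 at day 0. Over all 21 arrays it spanned 0.64, the narrowest range of the 58, whereas Rrm2 spanned 2.96, the widest. The class median at day 3 was 0.27, the lowest of the 8 classes.

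Chromatin copying held 4 rises of 7 members at each day. Asf1b, a chaperone that hands histones H3 and H4 to new DNA, had 8.10, 9.29 and 8.55 at day 3, against 7.57, 7.75 and 7.17 at day 0. It rose 2.22-fold at day 3 (1.15 ± 0.20) and 1.87-fold at day 7 (0.90 ± 0.20). Uhrf1, whose promoter is printed above, had 5.98, 7.15 and 6.33 at day 3, against 5.40, 5.48 and 5.39 at day 0. Its day 7 values were 6.53, 6.84 and 6.27. Neither gene overlapped between day 3 and day 0. Uhrf1 rose 2.09-fold at day 3 (adjusted p = 0.00636) and 2.18-fold at day 7 (adjusted p = 0.00686). Dnmt1, the maintenance methyltransferase that Uhrf1 recruits, differed by 0.23 ± 0.12 and 0.18 ± 0.12 and did not pass. Hells had 5.02, 6.66 and 5.72 at day 3, against 4.88, 5.10 and 4.81 at day 0, and rose 1.83-fold, with the medial lobe inside the day 0 range. Of the chromatin assembly factor CAF-1, Chaf1b passed at day 3 (0.84 ± 0.17) and Chaf1a at day 7 (0.77 ± 0.18). Without the day 7 cardiac lobe array Chaf1a (0.47, adjusted p = 0.0602) and Hells (0.86, adjusted p = 0.072) did not pass at day 7, and Chaf1b did. Slbp, which binds the ends of histone mRNAs, read 8.20, 8.80 and 8.31 at day 3, against 8.32, 8.40 and 8.16 at day 0. It did not pass (0.14 ± 0.13), while its other probe set passed at day 7.

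Among fork protection genes, Clspn, the adaptor that passes the stalled-fork signal to CHK1, rose at both days. Its values were 5.17, 5.60 and 5.33 at day 3, against 4.85, 5.15 and 4.99 at day 0. The day 7 arrays gave 5.24, 5.70 and 5.69. The lowest early value lay just above the highest day 0 value. The differences were 0.37 ± 0.11 and 0.55 ± 0.11. Timeless and Tipin form the complex that holds the fork together. Timeless differed by 0.45 ± 0.16 at day 3 and did not pass, and Tipin by 0.03 ± 0.18. Tipin had 7.38, 8.03 and 7.36 at day 3, against 7.60, 7.56 and 7.53 at day 0.

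The E2F and cyclin E class rose in 3 of 6 members at day 3 and 5 of 6 at day 7. E2f8 and E2f7 encode the atypical E2Fs, which repress E2F targets late in S phase and are themselves E2F targets. E2f8 had 6.04, 7.23 and 6.69 at day 3, against 5.52, 5.64 and 5.31 at day 0. It read 6.33, 6.36 and 6.36 at day 7, an SD of 0.01 over the regions. The early arrays all lay above day 0, and E2f8 rose 2.24-fold at day 3 and 1.82-fold at day 7. E2f7 had 6.86, 7.61 and 7.34 at day 3, against 6.57, 6.27 and 6.44 at day 0, a 1.79-fold rise. Of the activators, E2f1 passed at day 7 (0.59 ± 0.13) and not at day 3 (0.36 ± 0.13). Without the day 7 cardiac lobe array its day 7 difference was 0.49 (adjusted p = 0.0783). E2f2 did not pass at either day. Its values were 7.27, 7.37 and 7.20 at day 3, against 7.24, 7.40 and 6.95 at day 0. Cyclin E1 (Ccne1) rose at both days, by 0.64 ± 0.12 and 0.76 ± 0.12. Ccne2, the other E-type cyclin, had 7.47, 6.57 and 6.82 at day 7, against 6.27, 5.86 and 5.79 at day 0, and passed at day 7 (0.98 ± 0.29, adjusted p = 0.0459).

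Directly between the early days, no member passed (day 7 minus day 3, 0.0652% of all genes passed). An unadjusted p under 0.05 was reached by 5 members and by 2075 of all 19938 genes. A difference in which genes pass at day 3 and at day 7 is therefore not shown to be a difference between the days. Those 5 were Mcm4 (-0.34 ± 0.14), Dbf4, Pola1, Prim2 and Orc1 (0.27 ± 0.12). Without the day 3 medial lobe array 2 members passed as lower at day 7.

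From day 7 to day 14, 14 members fell and none rose, where 0.512% of all genes passed as lower, 0.216% as higher and 0.727% in either direction. They were Orc1, Mcm5, Mcm6, Mcm7, Pole, Lig1, Rrm1, Rrm2, Tk1, Asf1b, Uhrf1, Clspn, E2f8 and Ccne1. Rrm2 fell by 1.24 on the log2 scale (± 0.20, SE). Ccne1 had 6.09, 6.23 and 5.93 at day 14, against 7.04, 7.19 and 6.88 at day 7, and had the smallest adjusted p (0.00292). Uhrf1 had 5.49, 5.21 and 5.58 at day 14, against 6.53, 6.84 and 6.27 at day 7. Neither Ccne1 nor Uhrf1 overlapped between the days. The median difference was -0.45 over the members, against 0.000233 over all genes. Leaving out the day 14 cardiac lobe gave 1 call, the day 7 medial lobe 2, either other day 14 array 3, and the day 7 cardiac lobe 7.

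No member passed against day 0 at day 14, 28 or 56 or in sham lungs, where 1.2%, 0%, 0.0903% and 0.381% of all genes passed (limma). At an unadjusted p under 0.05 there were 6, 14, 9 and 7 members. Over all 19938 genes 2185, 1439, 2832 and 1856 reached that level. The medians over the 58 genes were -0.09, -0.21, -0.17 and -0.19, against 0.01 over all genes at day 14 and in sham lungs. At day 28 the arrays lay wholly below day 0 for 21 members, among them Mcm2, Mcm4, Mcm5, Mcm6, Mcm7, Pole, Lig1, Hells and Uhrf1, as they did for 5.54% of all genes. Timeless alone lay wholly above, as did 9.54% of all genes. Mcm6 was the nearest to the threshold at day 28, with 7.15, 7.27 and 6.81, against 7.43, 7.81 and 7.41 at day 0 (-0.47 ± 0.11, adjusted p = 0.315). Between 56 days after pneumonectomy and 56 days after sham no member passed, where 0.336% of all genes did, and none had an unadjusted p under 0.05. The median difference was 0.01, and 95% confidence intervals of single members reached from -0.85 to 0.80.

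Set against the sham lungs, a comparison chosen after seeing the data, 35 members rose at day 3 and 30 at day 7, where 4.46% and 2.37% of all genes were called higher. No member fell, where 3.21% and 2.15% of all genes were called lower. The median difference was 0.67 at day 3 and 0.52 at day 7. None of the members passed at day 14 or day 28 against sham, where 0.0652% and 0.186% of all genes did. At an unadjusted p under 0.05 there were 0 and 2, and the shares over all genes at that level are not given.

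The regions were highest at different days. In the cardiac lobe the mean difference from day 0 over the 58 genes was 0.85 at day 3 and 0.40 at day 7. In the medial lobe it was 0.22 at day 3 and 0.48 at day 7, and in the whole lung 0.50 and 0.34. The condition with the highest value was day 3 for 46 members in the cardiac lobe, where 12.4% of all genes had it there, day 7 for 50 members in the medial lobe, against 18% of all genes, and day 3 for 40 members in the whole lung, against 17.2%. Rrm2 shows the pattern, with 9.25 at day 3 and 8.50 at day 7 in the cardiac lobe, and 7.97 and 8.67 in the medial lobe. Over all 21 arrays 45 members had their highest value in the day 3 cardiac lobe. Each of these values is 1 array, so that region and array cannot be told apart.

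Averaged over all conditions, no member passed between the cardiac and the medial lobe, where 0.0903% of all genes did. At an unadjusted p under 0.05 there were 13, and 53 of the 58 differences were above 0. The shares over all genes are not given for these counts. Mcm6 was nearest, at 0.26 ± 0.07 (adjusted p = 0.245). The early response, days 3 and 7 against day 0 and sham, was also compared between regions. No member and no other gene (0%) passed between the cardiac and the medial lobe. There, 11 members had an unadjusted p under 0.05, and 56 of the differences were above 0. For these counts too the shares over all genes are not given. The median was 0.26, against -0.02 over all genes. Dut had the smallest p (0.64 ± 0.19, adjusted p = 0.964). Without the day 3 cardiac lobe array 3 members passed. Between the whole lung and the lobes no member passed (0% of all genes), and none had an unadjusted p under 0.05.

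Genes of the same machinery outside the 58 were read from lists. Over all genes, 3.97% passed as higher and 2.73% as lower at day 3, and 3.73% and 4.97% at day 7. Of 27 other replication factors 4 rose at day 3, with a median difference of 0.08. They were Ticrr, which brings the firing factors together (0.76 ± 0.11), Topbp1 (0.48 ± 0.09), Chtf18 (0.46 ± 0.12) and Mcm8 (0.43 ± 0.12). Of 26 G1/S regulators 3 rose, the E2F partner Tfdp1 (0.60 ± 0.12), Mybl2 (0.57 ± 0.15) and Skp2 (0.52 ± 0.08), the ligase subunit that targets p27. At day 7, 3 of the G1/S regulators passed as higher and 1 as lower. Cdkn1b, which encodes p27, fell at day 7 (-0.48 ± 0.13), and a link to Skp2 was not tested. Of 16 S-phase checkpoint and recombination genes 8 rose at day 3, led by Chek1 (1.01 ± 0.27), Exo1 (0.79 ± 0.18), Fanci (0.75 ± 0.16) and Brca1 (0.74 ± 0.13). Of 21 further nucleotide synthesis genes Dctd (0.999 ± 0.11) and Dck (0.50 ± 0.14) rose at day 3 and Tk2, the mitochondrial thymidine kinase, fell (-0.31 ± 0.09). At day 7 the other replication factors held 4 calls higher and 1 lower. The checkpoint and recombination genes held 5 and 1 at that day, and the nucleotide synthesis genes 2 and 1. Of 34 mitosis genes 34 rose at day 3 and 31 at day 7, with median differences of 1.42 and 1.07. In the cardiac lobe the mean of the mitosis genes was 8.26 at day 3 and 7.42 at day 7, and in the medial lobe 7.00 and 7.42. These lists, like the members, were chosen with earlier results known, and no test between lists was made.

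**Figure D5:**
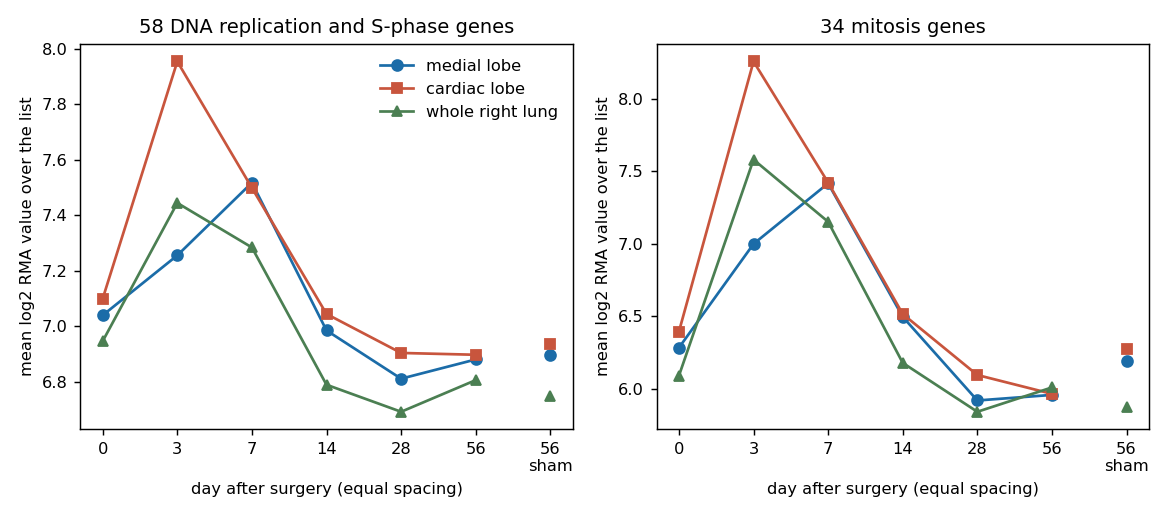
Mean log2 signal over 2 gene lists by condition (x axis, days at equal spacing, sham last), with 1 line per region and 1 array per symbol. The left panel holds the 58 replication genes and the right panel 34 mitosis genes. In both, the line of the cardiac lobe has its own peak at day 3 and that of the medial lobe at day 7.

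Markers of other cell types also moved at day 3, and some at later days. Over all genes 3.97% passed as higher and 2.73% as lower at day 3, and 4.46% and 3.21% at day 3 against sham. At day 3, 5 of 12 macrophage and monocyte markers rose, among them Itgam (2.39 ± 0.43) and C1qb (1.67 ± 0.22), and their mean level spanned 9.68 to 10.36, against 8.85 to 9.07 at day 0. Of 9 mesothelial markers 7 rose, with Wt1 at 1.36 ± 0.16 and a mean level of 10.36 to 10.49 at day 3, against 9.54 to 10.06 at day 0. Of 10 fibroblast markers 5 rose, with Col1a1 at 2.12 ± 0.40 and a mean level of 9.49 to 9.78, against 8.53 to 8.93. B cell markers fell in 6 of 7, among them Ms4a1 (-1.11 ± 0.23), with a mean level of 7.39 to 7.60 at day 3, against 8.05 to 8.55 at day 0. T and NK cell markers fell in 7 of 9, among them Cd3g (-1.13 ± 0.17), with a mean level of 6.49 to 6.90, against 7.29 to 7.60. These lymphocyte falls against day 0 were not confined to the early days. At day 14, 4 of 7 B cell and 4 of 9 T and NK cell markers passed as lower, where 1.2% of all genes passed in either direction. At day 28 the counts were 0 and 0 (0% of all genes), at day 56 1 and 2 (0.0903%), and in sham lungs 0 and 3 (0.381%). In the day 7 cardiac lobe the macrophage and fibroblast means were 9.92 and 10.17, above the other day 7 arrays. Of 10 alveolar type II markers 1 fell at day 3, Etv5 (-0.49 ± 0.14), all 10 differences were below 0, and their mean level spanned 10.99 to 11.79, against 11.63 to 11.995 at day 0. Of 10 endothelial markers none passed at day 3, though 2 had an unadjusted p under 0.05 and all 10 differences were below 0, with a mean level of 9.89 to 10.68, against 10.53 to 10.87 at day 0. Of the 13 lung tissue markers, some of which are also in these lists, 3 fell, namely Scgb3a2 (-0.43 ± 0.11), Nkx2-1 (-0.37 ± 0.09) and Hopx (-0.33 ± 0.09). Their mean level was 11.10 to 11.4985, against 11.53 to 11.61 at day 0. Against sham, 5 of 10 endothelial, 3 of 10 alveolar type II and 3 of 13 lung tissue markers fell at day 3, among them Tek (-0.85 ± 0.18). In that comparison 0 of 7 B cell and 1 of 9 T and NK cell markers fell at day 3, and 8 macrophage, 7 mesothelial and 6 fibroblast markers rose. The part of these cell types in the rise of the replication genes was not tested.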

How the data were processed

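For each of 21 arrays the deposited values are on the log2 scale, 1 per probe set. The authors made them with RMA, per the submitters' processing notes, whose settings are not stated. Per the labels' protocols RNA was amplified from its 3′ end, but the probes are annotated as a whole-transcript array. Which applies is not settled. Values ran from 2.98 to 14.06, with array medians of 5.98 to 6.18. No column lay outside the samples, and no 2 arrays were identical. The file gives no detection call, so whether a dim gene lay above background cannot be told. Of the members called at day 3 or 7, Orc1, Cdc7 and Hells were the dimmest. Their means stood at percentiles 15.0, 17.7 and 24.9 of all genes. The number of arrays limits the precision.

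Of 35556 probe sets, 21789 had 1 gene symbol, 1621 several and 12146 none. For the 999 of 19938 genes with over 1 probe set, the probe set with the highest mean was used. Cross-hybridisation was not checked.

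Using limma 3.58.1 (R 4.3.3), condition and region terms were estimated jointly over the 21 arrays, with empirical Bayes moderation (12 residual and 3.66 prior degrees of freedom). Replicate numbers 1, 2 and 3 stand for the medial lobe, the cardiac lobe and the whole lung, per the labels, so the region term is the replicate block. P-values were adjusted by Benjamini-Hochberg over all genes within each comparison, and genes were called at an adjusted p under 0.05. Early responses were compared between regions on region by phase means. The spread between samples may be partly technical. The alternatives tried were another choice of probe set, region term, prior, array centring, gene filter, control or set of arrays. The procedure was tested on simulated data. Promoter letters were searched with Python 3.11.15, and plots drawn with matplotlib 3.10.9.

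The members, the gene lists and the tests were chosen with earlier results of these data known. In each role class the 2 members with the largest day 3 difference among those called at day 3 or 7 (3 in classes of 9 or more) and the member with the smallest difference are given with array values. Of the other lists up to 4 called genes at day 3 are named. Mcm3, Mcm4, Mcm7, Mcm10, Cdt1, Cdc6, Cdc7, Dbf4, Cdc45, Orc1, Gins3, Pcna, Rfc5, Pole2, Pold1, Pold2, Prim2, Rrm1, Tyms, Dnmt1, Hells, Chaf1a, Chaf1b, Timeless, E2f1, Ccne1, Ccne2 and Cdkn1b, and the genes listed by count or overlap were added after their values were seen, to account for the other members of their complexes.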

Additional observations from a re-analysis of the deposited data

Results flagged for a closer look

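Between days 3 and 7 the cardiac and medial lobes moved in opposite directions. The mean over the 58 replication genes, day 7 minus day 3, was -0.46 in the cardiac lobe and 0.26 in the medial lobe, on the log2 scale. In the cardiac lobe 47 of the 58 genes were lower at day 7 than at day 3, and in the medial lobe 54 were higher. Both held at once for 45 of the 58 genes, where 26.4% of all genes showed that pair of directions. In the whole right lung 46 genes were lower at day 7, with a mean of -0.16. Each lobe has 1 array per day, so the difference was not tested, and array, animal and lobe cannot be told apart. The 34 mitosis genes had means of -0.84 in the cardiac lobe, 0.42 in the medial lobe and -0.43 in the whole lung. The day 7 cardiac lobe array is one of the 2 arrays that stood apart in spread.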

How the results depend on the processing

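No member was called lower at day 3 or day 7 under any alternative tried, and none was called against day 0 at day 14, 28 or 56 or in sham lungs. The counts of rises moved more. Without the region term (no replicate block, hence no pairing by region) 14 members rose at day 3 and 11 at day 7, and 2 fell from day 7 to day 14. Without the genes dimmer than the median gene, which left 34 members, these counts were 15, 11 and 8, and the F test passed 20. With only the 6 arrays compared, 13 rose at day 3 and 1 at day 7, and in the lobes alone 2 and 12. Leaving out 1 array at a time gave 15 to 32 at day 3, 7 to 25 at day 7, 1 to 12 from day 7 to day 14, 0 to 2 between days 3 and 7, 32 to 45 for the F test and 0 to 3 for the early response between lobes. Why the counts moved was not tested. Some of these fits also held fewer arrays or genes, and their calls over all genes are not given.

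Alternatives chosen after seeing the data left out the 2 arrays of unusual spread, with 7 falls from day 7 to day 14, or centred each array on the median of all its probe sets, with 21 rises at day 3, 19 at day 7 and 6 falls from day 7 to day 14. Centring on the median gene gave 31, 31 and 18. Over all genes these centrings moved the split of calls at day 7 to 480 higher of 1953 called and to 1133 higher of 1876 called, against 743 of 1733 as deposited, and at day 3 the first gave 606 of 1421, against 792 of 1336. Over the 25 members named by rule, 325 of 392 day 3 values kept their side of the threshold, 66 lost the call and 1 gained it, and at day 7 the numbers were 319, 64 and 9. No called value changed sign.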
